A study of Mus musculus with 51 samples.

Results

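Caldesmon (Cald1), palladin (Palld), IQ motif containing GTPase activating protein 2 (Iqgap2), sarcospan (Sspn) and the gamma form of the Cdc42 binding kinase (Cdc42bpg) are 5 genes whose proteins bind actin filaments, sit in the dystrophin complex or carry signals to myosin. All spots whose platform symbol was one of these were taken, which gave 11 probes on 22 spots, out of 7920 probes. Cald1 had 5 probes, Iqgap2 and Sspn 2 each, and Palld and Cdc42bpg 1 each. The genes were picked because some of their probes stood far from a log2 ratio of 0 on spiked arrays, so their differences from unspiked arrays are given as a description.

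Actin filaments give a cell its cortex and its contractile bundles, and myosin motors pull on them. Caldesmon binds actin and tropomyosin and holds back myosin, while palladin is a scaffold of stress fibres and focal contacts. Iqgap2 links actin to the small GTPases Cdc42 and Rac, Cdc42bpg is a kinase that acts downstream of Cdc42 on myosin, and sarcospan is a membrane protein of the complex that ties dystrophin, and through it actin, to laminin outside the cell. That complex is known best from muscle, whereas a hybridoma is an antibody-secreting hybrid of a B cell and a myeloma cell that grows in suspension.

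The study tested how spotted 2-colour arrays read known amounts of added RNA. Both channels of each of 51 arrays held RNA of CRL1606, a mouse hybridoma that makes an antibody against human fibronectin and that was grown without serum, and the titles call every array a self-hybridisation. Into one channel 100 genes had been spiked and into the other channel another 100 genes, at one amount per array. Of the arrays, 6 had each of 0, 0.05, 0.1, 0.25, 0.5 and 0.75 pmol per gene, and 3 had each of 0.025, 0.15, 0.2, 1 and 2 pmol. The sources used here do not name the spiked genes, so it is unknown whether any of the 5 was among them. Nor do they say which channel is the numerator, so a ratio is called positive or negative and no channel is called brighter. The line is 1 hybridoma, and no label ties replicates to cultures of their own, so the p-values reflect array-to-array spread, possibly technical only.

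A ratio of 2 portions of the same RNA gives no level of a gene, so the labelled cell type could not be checked against marker levels, and fewer cells of a type and less RNA per cell cannot be told apart. Values are log2 ratios after each array was centred on its median, averaged over the 2 spots of a probe, and a probe is named by the number of its first spot. Between 8376 and 16869 of 16896 spots were measured per array. The 3 arrays at 1 pmol lacked 13.5% to 50.4% of their spots and the other arrays 0.16% to 9.22%. Over all probes, the paired spots of an array correlated with a median r of 0.887, and replicate 4 at 0.75 pmol stood apart at 0.198. The arrays were clustered on 3436 probes measured on all of them, without the 200 probes farthest from 0 at 2 pmol. The clustering was cut into 6 array sets, a number fixed beforehand. The 6 arrays at 0 pmol formed a set alone, and all arrays at 1 and 2 pmol fell into another set, which also held arrays at 0.25, 0.5 and 0.75 pmol.

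The 11 probes fell into 3 patterns. Cald1 spot 757, Sspn spot 12238 and Cdc42bpg spot 2044 were strongly positive on all 45 spiked arrays, and Iqgap2 spot 7941 was strongly negative on all 45. Cald1 spot 12991 turned negative as the amount grew. The other 6 probes averaged within 1 log2 unit of 0 at 2 pmol, among them the only probe of Palld. Thus Cald1 had probes of both signs and probes near 0, and Iqgap2 and Sspn each had one probe far from 0 and one near it.

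Set against the 6 arrays at 0 pmol in limma (adjusted p under 0.05, with the adjustment over all probes tested), 56 of 110 pairs of a probe and an amount were called. The number of the 11 probes called was 4 at 0.025 pmol, where 4.98% of all probes were called, 4 at 0.05 pmol (4.15%), 5 at 0.1 pmol (6.26%), 5 at 0.15 pmol (10.7%) and 5 at 0.2 pmol (8.89%). At higher amounts it was 6 at 0.25 pmol (13%), 8 at 0.5 pmol (25.1%), 6 at 0.75 pmol (7.49%), 7 at 1 pmol (42.5%) and 6 at 2 pmol (15.6%). The genes were picked from these comparisons, and the 10 comparisons share the arrays at 0 pmol, so nothing is read from these counts.

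The slope on log2 of the amount uses the 45 spiked arrays and none at 0 pmol. It passed limma's threshold (adjusted p under 0.05) for 7 of the 11 probes, 5 positive and 2 negative, against 23.1% of all 7920 probes, 13% positive and 10.1% negative. The members were chosen with ratios of these spiked arrays in view, among them those at 2 pmol. Without the arrays at 2 pmol, 7 of the 11 slopes passed, against 18.8% of all 7920 probes. The remaining spiked arrays were in view in the choice too, so this count is not free of it. The median slope of all probes was -0.00169, and 95% of them lay between -0.22 and 0.26. With array set as a covariate, none of the 11 slopes passed, and 16 of 7920 did over all probes. Array set and amount overlap strongly in this design, so their parts in the slopes cannot be told apart here.

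**Figure D1:**
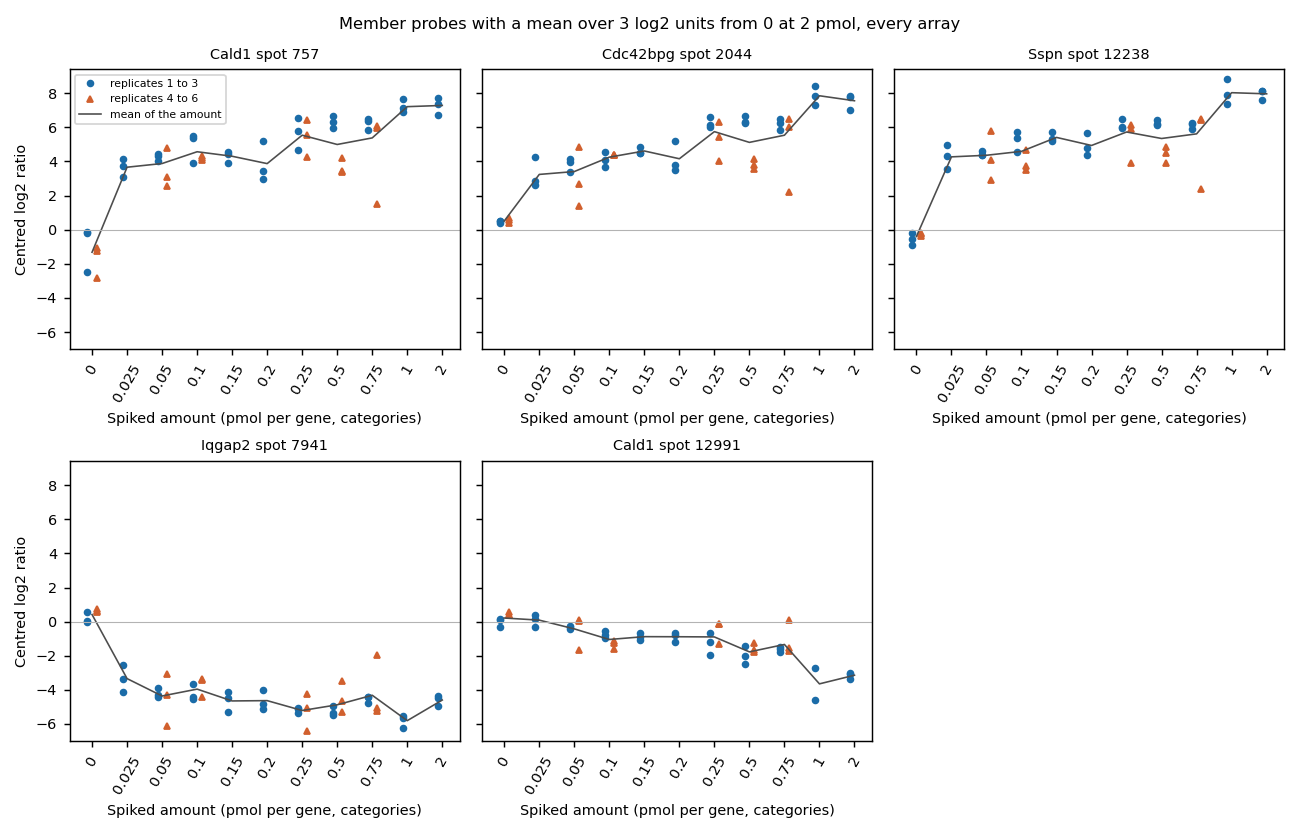
Centred log2 ratio of the 5 probes whose mean lay over 3 log2 units from 0 at 2 pmol, on every array (points; circles for replicates 1 to 3 and triangles for replicates 4 to 6), with the mean of each amount as a line and the amounts as categories. Cald1 spot 757, Sspn spot 12238 and Cdc42bpg spot 2044 stand above their 0 pmol arrays on all 45 spiked arrays. Iqgap2 spot 7941 stands below on all 45. The means of Cald1 spot 12991 lie between -1.05 and -0.88 from 0.1 to 0.25 pmol. Its arrays at 1 and 2 pmol lie below all its others.

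Cald1 showed the widest spread between probes of one gene. Its probe at spot 757 had log2 ratios of -2.82 to -0.13 (median -1.17) on the 6 arrays at 0 pmol and of 3.11, 3.72 and 4.15 at 0.025 pmol. It had 2.56 to 4.81 (median 4.17) at 0.05 pmol, 3.89 to 5.52 (median 4.25) at 0.1 pmol, 3.92, 4.46 and 4.53 at 0.15 pmol, and 2.96, 3.46 and 5.20 at 0.2 pmol. The lowest spiked amount was thus already clear of 0 pmol, and the amounts up to 0.2 pmol overlapped each other. Further up the probe had 4.26 to 6.53 (median 5.67) at 0.25 pmol, 3.38 to 6.66 (median 5.08) at 0.5 pmol and 1.51 to 6.50 (median 6.01) at 0.75 pmol. It had 6.87, 7.11 and 7.66 at 1 pmol and 6.74, 7.38 and 7.73 at 2 pmol, where all 6 arrays were higher than every array at a lower amount. Replicate 4 at 0.75 pmol was the lowest of the spiked arrays. In the order of the 11 means, 8 of 10 neighbouring amounts overlapped, and the clear steps were the one between 0 and 0.025 pmol and the one between 0.25 and 1 pmol.

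The mean of this Cald1 probe was 7.28 ± 0.50 at 2 pmol (SD, n = 3), against -1.33 ± 1.12 at 0 pmol (SD, n = 6). The mean at 0.025 pmol, 3.66 ± 0.52 (SD, n = 3), is a ratio of 12.7 between the channels, and the mean at 2 pmol a ratio of 156. The probe ranked 12 from the highest of 7917 probes at 2 pmol, and 103 from the lowest of 7920 at 0 pmol. Its slope over the spiked arrays was 0.53 ± 0.09 per doubling of the amount (SE, n = 45 arrays, limma adjusted p = 7.4e-05). Slopes were also taken within the 3 array sets that hold at least 3 amounts. There the slope was 0.87 ± 0.17 (SE) in the 8 arrays from 0.025 to 0.1 pmol. It was -0.15 ± 0.40 (SE) in 13 arrays from 0.1 to 0.5 pmol. In 14 arrays from 0.25 to 2 pmol it was 0.57 ± 0.15 (SE). The slope within sets was thus positive in the lowest and highest ranges and smaller than its SE in the middle one.

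The other Cald1 probe with a clear trend, spot 12991, carries a different sequence accession on the platform and had the opposite sign. Its log2 ratios were -0.31 to 0.58 (median 0.27) at 0 pmol, -0.29, 0.17 and 0.38 at 0.025 pmol, and -1.65 to 0.08 (median -0.29) at 0.05 pmol. They were -1.60 to -0.54 (median -1.05) at 0.1 pmol, -1.10, -0.89 and -0.65 at 0.15 pmol, -1.18, -0.79 and -0.69 at 0.2 pmol and -1.96 to -0.12 (median -0.91) at 0.25 pmol. Its arrays at 0.025 pmol thus lay inside the range at 0 pmol, and its arrays from 0.1 to 0.2 pmol all lay below that range. At the higher amounts the values were -2.51 to -1.28 (median -1.70) at 0.5 pmol, -1.79 to 0.08 (median -1.56) at 0.75 pmol, -4.59 and -2.70 on the 2 arrays at 1 pmol that measured it, and -3.34, -3.08 and -3.01 at 2 pmol. The highest value at 0.75 pmol was again replicate 4.

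At 2 pmol this probe averaged -3.14 ± 0.18 (SD, n = 3), against 0.21 ± 0.31 at 0 pmol (SD, n = 6), and 35 of 44 spiked arrays lay below every array at 0 pmol. Its slope was -0.44 ± 0.06 per doubling (SE, n = 44, limma adjusted p = 5.87e-07). Within the 3 array sets that hold at least 3 amounts its slope was negative each time. It was -0.38 ± 0.10, -0.32 ± 0.18 and -0.69 ± 0.20 (SE) from the lowest to the highest range of amounts.

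The remaining 3 Cald1 probes share the sequence accession of spot 757 and had means within 1 of 0 at 2 pmol. Spot 3095 had 0.52, -0.13 and 0.33 at 2 pmol, against -0.80 to 0.17 (median -0.14) at 0 pmol, and its groups overlapped. Spot 8892 had -0.20, -0.08 and -0.08 at 2 pmol, against -4.49 to -0.25 (median -0.83) at 0 pmol. Spot 11317 had 1.15, -0.26 and 1.89 at 2 pmol, against -0.53 to 0.25 (median -0.20) at 0 pmol. At 1 pmol spot 3095 spread more, with -2.62, -0.02 and 3.34, and so did spot 8892, with -5.96 and -0.35 on the 2 arrays that measured it. The values -2.62, 3.34 and -5.96 each came from 1 spot, as the other spot of the pair was missing. Spot 11317 spread less at 1 pmol than at 2 pmol, with 1.06, 1.25 and 1.82. Spot 8892 was wide at 0 pmol too, with a mean of -1.75 that ranked 14 from the lowest of 7920 probes.

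Spot 11317 was the one of the 3 with a slope past the threshold, 0.21 ± 0.05 per doubling (SE, n = 45, limma adjusted p = 0.00363). Its values over 1 came from 10 arrays at 0.25, 0.5, 1 and 2 pmol, all of the same array set, and its slope was -0.03 ± 0.16 (SE) within that set. It was called at 1 of 10 amounts against 0 pmol, spot 8892 also at 1 and spot 3095 at none. With replicates 1 to 3 only, spot 11317 was called at 4 amounts and spot 8892 at 9, and spot 8892 was called at 4 with arrays scaled to one spread and at none with the replicate block. The slopes of spots 3095 and 8892 were 0.03 ± 0.07 (n = 45, limma adjusted p = 0.772) and -0.04 ± 0.08 (SE, n = 44, limma adjusted p = 0.79).

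**Figure D2:**
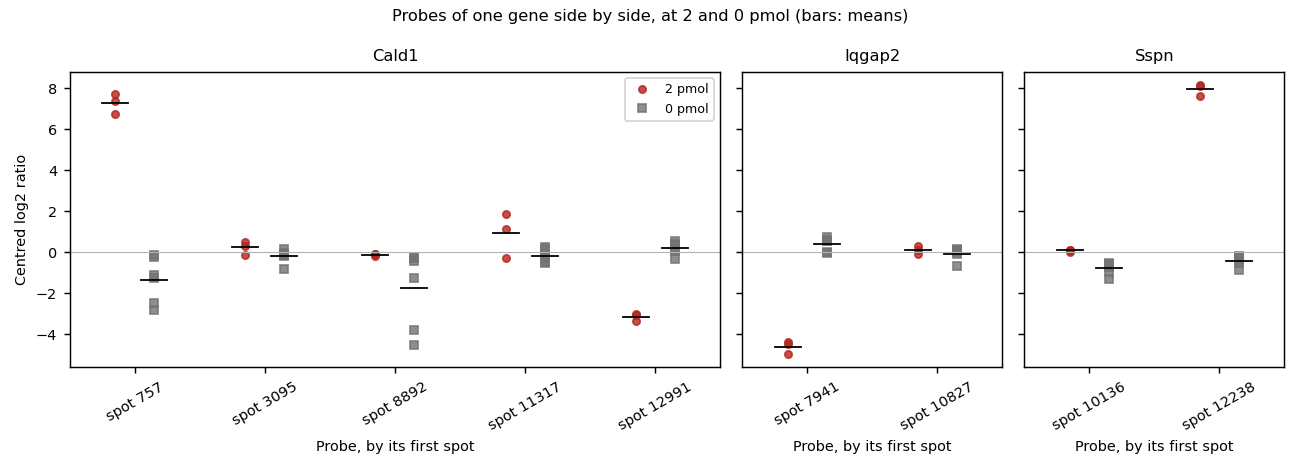
Centred log2 ratio on each array at 2 pmol (circles) and at 0 pmol (squares) for every probe of Cald1, Iqgap2 and Sspn, with means as bars. One Cald1 probe averages 7.28 and another -3.14 at 2 pmol, while Iqgap2 and Sspn each have one probe far from 0 and one whose 2 pmol arrays lie within 0.29 of 0.

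Where one probe of an accession lay far from 0 at 2 pmol, another probe of that accession mostly lay near 0. Of 4303 accessions, 782 were on more than 1 probe. Among these, 29 had a probe at least 4 log2 units from 0 at 2 pmol, and in 25 of the 29 another probe of the same accession lay within 1 unit of 0. In 1 of the 29, all probes lay at least 4 units away. The 4 Cald1 probes and the 2 Sspn probes of one accession are 2 of these 25 cases. Over all probes, 4.77% had a mean at least 2 from 0 at 2 pmol, so a second probe near 0 is common on these arrays. The remaining accessions on more than 1 probe were not compared. The probe sequences are not given in the sources used here, and which part of a transcript each spot holds was not tested.

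For Palld, the values at 0 pmol lay farther below 0 than most of those on spiked arrays. Cald1 spot 8892 was like this only in part. Its replicates 1 to 3 at 0 pmol had -1.25, -4.49 and -3.805, the last 2 from 1 spot each. Its replicates 4 to 6 had -0.25, -0.28 and -0.41, against a median of -0.25 on spiked arrays. The Palld log2 ratios were -3.71 to -1.21 (median -1.92) at 0 pmol and -3.00, -1.38 and -0.72 at 0.025 pmol. At 0.05 pmol they were -2.14 to -0.22 (median -1.26). They were -2.16 to 0.03 (median -0.49) on 5 arrays at 0.1 pmol, -0.63, -0.58 and 0.01 at 0.15 pmol, and -0.93, -0.07 and 0.07 at 0.2 pmol. All arrays at 0.15 and 0.2 pmol were higher than all at 0 pmol. From there on the values were -1.27 to 0.60 (median -0.82) at 0.25 pmol, -0.73 to 0.06 (median -0.19) at 0.5 pmol, -1.27 to 0.12 (median -0.40) at 0.75 pmol, -4.58 and -0.10 on 2 arrays at 1 pmol, and -0.74, -0.28 and -0.18 at 2 pmol.

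The Palld mean was -0.40 ± 0.30 at 2 pmol (SD, n = 3), against -2.18 ± 1.05 at 0 pmol (SD, n = 6). That 0 pmol mean ranked 2 from the lowest of 7920 probes. Against 0 pmol the probe was called at 6 of 10 amounts, each time positive, although its spiked values lay near or below 0 and were negative on 34 of 43 spiked arrays. It was called at none of the 10 with replicates 1 to 3 only, at 1 with the upper spot only and at 3 with the replicate block. Its slope, 0.13 ± 0.08 per doubling, did not pass (SE, n = 43, limma adjusted p = 0.205). Omitting the 3 arrays at 1 pmol gave a slope of 0.20, which passed (limma adjusted p = 0.00865), and without replicate 3 at 1 pmol alone, the array with -4.58, it was also 0.20 and passed (limma adjusted p = 0.00693).

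**Figure D3:**
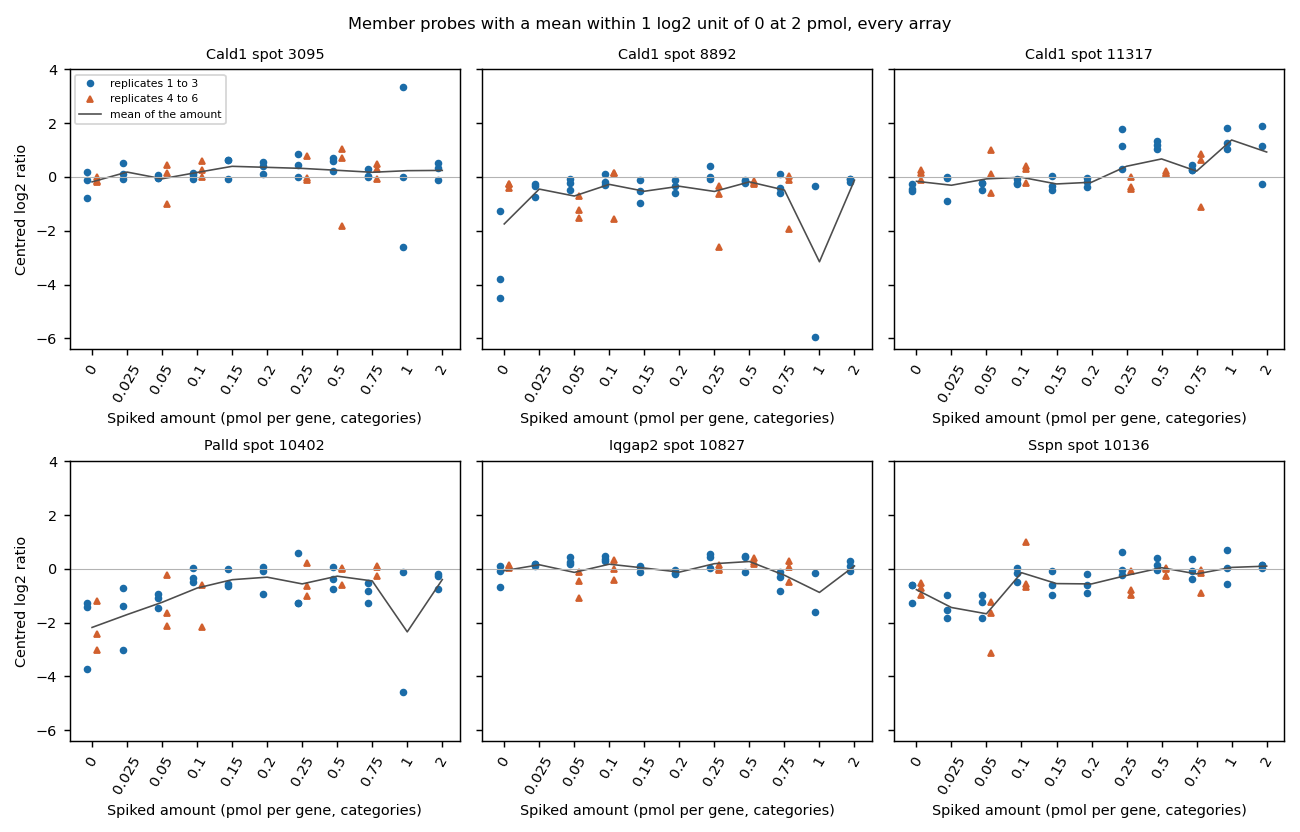
Centred log2 ratio of the 6 probes whose mean lay within 1 log2 unit of 0 at 2 pmol, on every array (points; circles for replicates 1 to 3 and triangles for replicates 4 to 6), with the mean of each amount as a line and the amounts as categories. The mean of Palld spot 10402 is lowest at 1 and 0 pmol, but its 2 arrays at 1 pmol lie at -4.58 and -0.10. The arrays at 1 pmol scatter from -5.96 to -0.35 for Cald1 spot 8892 and from -2.62 to 3.34 for Cald1 spot 3095.

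Iqgap2 had the probe with the lowest mean of the 11 at 2 pmol. This probe, at spot 7941, had log2 ratios of -0.05 to 0.77 (median 0.56) at 0 pmol, -4.10, -3.39 and -2.53 at 0.025 pmol, and -6.14 to -3.07 (median -4.32) at 0.05 pmol. It had -4.53 to -3.34 (median -4.02) at 0.1 pmol, -5.32, -4.49 and -4.14 at 0.15 pmol, and -5.11, -4.80 and -3.98 at 0.2 pmol. Each spiked array was below each array at 0 pmol, and the arrays at 0.15 pmol were also all below those at 0.025 pmol. The values were -6.43 to -4.25 (median -5.09) at 0.25 pmol, -5.48 to -3.47 (median -5.14) at 0.5 pmol, -5.24 to -1.98 (median -4.62) at 0.75 pmol, -6.24, -5.64 and -5.54 at 1 pmol, and -4.95, -4.46 and -4.39 at 2 pmol.

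The mean was 0.41 ± 0.33 at 0 pmol (SD, n = 6), -5.81 ± 0.38 at 1 pmol and -4.60 ± 0.31 at 2 pmol (SD, n = 3 each), so the arrays at 2 pmol were closer to 0 than those at 1 pmol. At 2 pmol the probe ranked 39 from the lowest of 7917. In the order of means from the lowest, 2 pmol stood in place 6, and 9 of 10 neighbours in that order overlapped, although the arrays at 1 pmol were all below those at 2 pmol. The slope was -0.20 ± 0.07 per doubling (SE, n = 45, limma adjusted p = 0.0389), the smallest in size of the 4 probes that were strong on all spiked arrays. It was -0.59 ± 0.23 from 0.025 to 0.1 pmol, -0.13 ± 0.33 from 0.1 to 0.5 pmol and 0.12 ± 0.12 from 0.25 to 2 pmol (SE), within array sets. This call was lost in several alternatives, among them the omission of any single array at 0.025 or 1 pmol (limma adjusted p up to 0.108).

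The second Iqgap2 probe, spot 10827, has another accession and a mean near 0 at 2 pmol. It had -0.09, 0.12 and 0.29 at 2 pmol, against -0.67 to 0.14 (median 0.06) at 0 pmol, and the groups overlapped. It was called at 1 pmol only, where it had -1.61 and -0.14 on 2 arrays (difference -0.81, limma adjusted p = 0.0326), and at no amount with replicates 1 to 3 only or with arrays scaled to one spread. Its slope was -0.03 ± 0.04 per doubling (SE, n = 44, limma adjusted p = 0.587).

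Sspn had the highest mean of the 11 probes at both 1 and 2 pmol. Its probe at spot 12238 had log2 ratios of -0.87 to -0.19 (median -0.30) at 0 pmol, 3.53, 4.30 and 4.98 at 0.025 pmol, and 2.90 to 5.81 (median 4.37) at 0.05 pmol. It had 3.49 to 5.70 (median 4.62) at 0.1 pmol, 5.20, 5.31 and 5.72 at 0.15 pmol, and 4.36, 4.78 and 5.66 at 0.2 pmol. The spiked arrays were all above those at 0 pmol, and of the amounts up to 0.2 pmol those at 0.025 and 0.15 pmol did not overlap. The probe had 3.88 to 6.48 (median 5.99) at 0.25 pmol, 3.91 to 6.45 (median 5.51) at 0.5 pmol, 2.40 to 6.50 (median 6.24) at 0.75 pmol, 7.35, 7.90 and 8.84 at 1 pmol, and 7.63, 8.12 and 8.15 at 2 pmol. The arrays at 1 and 2 pmol overlapped each other and were clear of all others.

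Its mean was 7.96 ± 0.29 at 2 pmol (SD, n = 3), a ratio of 249.7 between the channels, against -0.40 ± 0.26 at 0 pmol (SD, n = 6), and it ranked 5 from the highest of 7917 probes at 2 pmol. The slope was 0.53 ± 0.09 per doubling (SE, n = 45, limma adjusted p = 2.35e-05). Within array sets it was 0.34 ± 0.23 from 0.025 to 0.1 pmol, -0.53 ± 0.26 from 0.1 to 0.5 pmol and 0.71 ± 0.15 from 0.25 to 2 pmol (SE), so it was negative in the middle range.

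The second Sspn probe, spot 10136, shares the accession of spot 12238. It had -1.27 to -0.51 (median -0.65) at 0 pmol, -1.82, -1.52 and -0.97 at 0.025 pmol, -3.12 to -0.98 (median -1.43) at 0.05 pmol, and 0.03, 0.13 and 0.14 at 2 pmol. It was thus lowest at the lowest spiked amounts and near 0 at the highest. Its slope of 0.28 ± 0.05 per doubling passed (SE, n = 45, limma adjusted p = 7.96e-05), with 0.52 ± 0.20 from 0.025 to 0.1 pmol but 0.13 ± 0.16 and -0.02 ± 0.09 in the middle and highest ranges (SE). Against 0 pmol it was called at 1 of 10 amounts, and at none with the upper spot only.

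Cdc42bpg had the steepest slope of the 11 probes. Its only probe had log2 ratios of 0.37 to 0.71 (median 0.51) at 0 pmol, 2.59, 2.83 and 4.29 at 0.025 pmol, and 1.36 to 4.86 (median 3.69) at 0.05 pmol. It had 3.70 to 4.56 (median 4.37) at 0.1 pmol, 4.48, 4.52 and 4.84 at 0.15 pmol, and 3.52, 3.78 and 5.17 at 0.2 pmol. The 0 pmol arrays were close together and all positive, and every spiked array was above them. It had 4.01 to 6.61 (median 6.06) at 0.25 pmol, 3.57 to 6.64 (median 5.19) at 0.5 pmol, 2.19 to 6.49 (median 6.11) at 0.75 pmol, 7.29, 7.82 and 8.44 at 1 pmol, and 7.03, 7.80 and 7.84 at 2 pmol. As for Sspn and Cald1 spot 757, the arrays at 1 and 2 pmol were clear of all others and overlapped each other.

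The mean was 7.56 ± 0.46 at 2 pmol (SD, n = 3), against 0.51 ± 0.12 at 0 pmol (SD, n = 6), and the probe ranked 10 from the highest of 7917 at 2 pmol. Its slope was 0.68 ± 0.09 per doubling (SE, n = 45, limma adjusted p = 6.94e-07), or a 1.60-fold higher ratio with each doubling of the amount. A ratio proportional to the amount would have a slope of 1, and the 95% interval of the Cdc42bpg slope ran from 0.49 to 0.87. Within array sets the slope was 0.46 ± 0.29 from 0.025 to 0.1 pmol, -0.23 ± 0.33 from 0.1 to 0.5 pmol and 0.53 ± 0.15 from 0.25 to 2 pmol (SE).

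**Figure D4:**
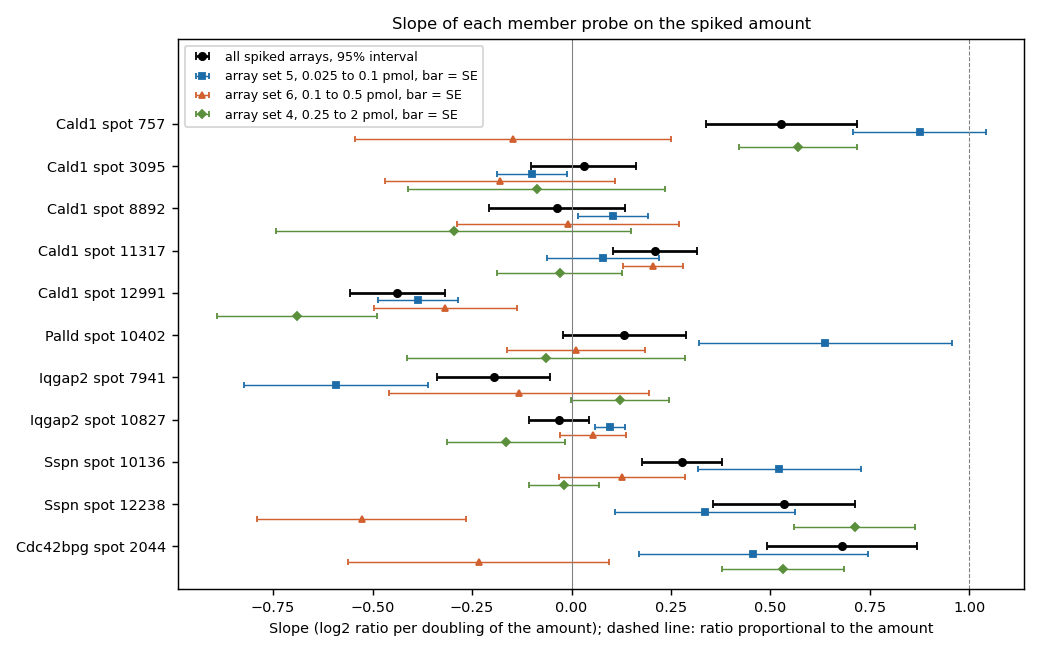
Slope of the centred log2 ratio per doubling of the spiked amount for each of the 11 probes over all spiked arrays (black, 95% interval) and within the 3 array sets that hold at least 3 amounts (coloured, bars are SE). The black intervals of the 3 strongly positive probes lie left of 1. Their slopes in the set from 0.1 to 0.5 pmol are negative, but smaller in size than their SE for Cald1 spot 757 and Cdc42bpg.

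The 3 strongly positive probes were compared with each other array by array, a comparison chosen after their values had been seen and made for 3 pairs. The difference Cald1 spot 757 minus Cdc42bpg changed by -0.15 per doubling (95% interval -0.25 to -0.06, n = 45 arrays, Pearson r = -0.438, permutation p = 0.00224, adjusted 0.00672; Spearman coefficient -0.483, permutation p = 0.00087, adjusted 0.00261). For Sspn spot 12238 minus Cdc42bpg the change was also -0.15 (95% interval -0.25 to -0.04, r = -0.392, permutation p = 0.00714, adjusted 0.01071; Spearman coefficient -0.432, permutation p = 0.00323, adjusted 0.004845). Cald1 spot 757 minus Sspn spot 12238 changed by -0.01 (95% interval -0.12 to 0.11, r = -0.0195, permutation p = 0.898, adjusted 0.898; Spearman coefficient -0.0193, permutation p = 0.9, adjusted 0.9). Taken over all 45 spiked arrays without regard to array set, Cdc42bpg stood relatively lower at low amounts than either of the other probes. The probes and the pairs were chosen on these same arrays, so the p-values are given as a description only. Leaving out the 2 arrays farthest from the median amount gave r of -0.378 and -0.331 for the first 2 pairs. With array set as a term the 3 changes were 0.01, -0.03 and 0.04 per doubling, so the differences did not hold within array sets.

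At 0.5 pmol, replicates 1 to 3 stood above replicates 4 to 6 for the strongly positive probes. For Cald1 spot 757, replicates 1 to 3 had 6.66, 6.33 and 5.95 and replicates 4 to 6 had 4.21, 3.43 and 3.38. Sspn spot 12238 did not overlap between these replicates either, with 6.45, 6.22 and 6.16 in replicates 1 to 3 and 4.85, 4.47 and 3.91 in replicates 4 to 6. Cdc42bpg had 6.26, 6.33 and 6.64 in replicates 1 to 3 and 4.13, 3.78 and 3.57 in replicates 4 to 6. Replicates 1 to 3 and replicates 4 to 6 lay in different array sets. Iqgap2 spot 7941 did not split in this way, with -5.48, -5.37 and -4.96 in replicates 1 to 3 and -3.47, -4.66 and -5.32 in replicates 4 to 6, nor did Cald1 spot 12991. At 0.25 pmol replicates 1 to 3 and 4 to 6 lay in the same array sets as at 0.5 pmol. The strongly positive probes overlapped between them there. Cald1 spot 757 had 5.78, 6.53 and 4.68 against 6.43, 4.26 and 5.55. Sspn spot 12238 had 5.96, 6.48 and 6.03 against 5.89, 3.88 and 6.12, and Cdc42bpg had 5.99, 6.12 and 6.61 against 6.32, 4.01 and 5.44.

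The paired spots of a probe agreed closely for the probes that were strong on all spiked arrays. Over the arrays, the 2 spots correlated at r = 0.997 for Cald1 spot 757, 0.995 for Sspn spot 12238, 0.997 for Cdc42bpg and 0.992 for Iqgap2 spot 7941. Their median difference was 0.10 to 0.11, against 0.15 over all probes. For Cald1 spot 12991 r was 0.908 and the median difference 0.15, like that over all probes. Among the probes near 0, r ranged from 0.123 for Cald1 spot 3095 to 0.798 for Palld, and spot 3095 had 1 array, replicate 4 at 0.5 pmol, on which its spots differed by 4.92. Their median differences ran from 0.13 for Cald1 spot 3095 to 0.26 for Palld. An r also depends on how far a probe's values range, so r is not comparable between probes far from and near 0.

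Among probes with 1 symbol, those with the most similar profile were found by Pearson r over at least 40 arrays. For Cald1 spot 757 these were Sspn spot 12238 (r = 0.952), Galnt13 (0.940) and Tpbg (0.938), and for Sspn spot 12238 they were Tpbg (0.964), Acsl5 (0.959) and Slc2a5 (0.958). Cdc42bpg was most like Atp2b2 (0.956), Sspn spot 12238 (0.947) and Cald1 spot 757 (0.937). For Iqgap2 spot 7941 they were Nap1l4 (0.912), Cmpk1 (0.905) and Trp53bp1 (0.899), and for Cald1 spot 12991 they were Pitpnb (0.926), Chst11 (0.924) and Ankzf1 (0.924). All these partners of the 5 probes had the sign of their probe at 2 pmol. These r include the step from 0 pmol that the probes share, and after each amount's mean was taken off r was 0.64 to 0.83 for the same pairs.

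The 6 probes near 0 had partners with lower r. Cald1 spot 3095 was most like Rnd3 (0.736), Rpa1 (0.725) and Pde4d (0.707), spot 8892 most like Ipo7 (0.778), Atl3 (0.777) and Thada (0.712), and spot 11317 most like Pdcd11 (0.865), Me2 (0.779) and Ddx50 (0.769). Palld was most like Ltbp1 (0.816), Nav3 (0.788) and Glis3 (0.777). The partners of Iqgap2 spot 10827 were Xpc (0.746), Brinp1 (0.742) and Osbpl3 (0.736), and those of Sspn spot 10136 were Ank3 (0.712), Rsrc1 (0.711) and Adam22 (0.705).

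Print position moved with some of these profiles. Of the 33 most similar probes, 10 lay in the same print block as their partner, while a block holds 2.08% of all probes with 1 symbol. Those of the strongly positive probes, Cald1 spot 757, Sspn spot 12238 and Cdc42bpg, all lay in other blocks. Chst11 and Ankzf1 were printed in the column of Cald1 spot 12991, 2 and 4 probe rows above it. Cdc42bpg had Rusc2 directly below it, with a mean of 5.19 at 2 pmol, against 0.19 at 0 pmol, and r = 0.931. Cald1 spot 757 lay between Pbrm1 (3.28 at 2 pmol, against 0.26 at 0 pmol, r = 0.866) and Epn2 (2.14, against 0.20, r = 0.525).

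Cald1 spot 11317 had Pdcd11 directly above it (2.57 at 2 pmol, against -0.10 at 0 pmol, r = 0.865) and Tsc2 diagonally above (2.62, against 0.01, r = 0.469). Palld lay beside spot 10403, which has no symbol (-3.17 at 2 pmol, against -0.35 at 0 pmol, r = 0.0316). The other probes had no neighbour with a mean at least 2 from 0 at 2 pmol, a mean that 4.77% of all probes had themselves. Iqgap2 spot 7941 and Sspn spot 12238 were among the probes without such a neighbour. Each still had a neighbour of its own sign directly below it, short of that limit. For Sspn spot 12238 this was Clspn (1.99 at 2 pmol, against -0.09 at 0 pmol, r = 0.727). For Iqgap2 spot 7941 it was Ipo5 (-1.48, against 0.23, r = 0.762). The other neighbours had r of -0.34 to 0.22 for Sspn spot 12238 and -0.27 to 0.11 for Iqgap2 spot 7941. The part of print position in the members' values was not tested.

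Other genes of the dystrophin complex and of actin filaments were taken from lists that hold none of the 5 genes. Of the dystrophin complex, 12 genes with 20 probes were measured, and 4 probes (20%) had a slope past the threshold, against 23.1% of all probes. These were Sntb2, a syntrophin (0.26 ± 0.09 per doubling, SE), the laminin chain Lama2 (0.24 ± 0.08), the dystrobrevin Dtna (0.15 ± 0.05) and dystrophin itself, Dmd (-0.17 ± 0.04). Despite its positive slope, Sntb2 averaged -1.81 at 2 pmol, against -0.33 at 0 pmol. With arrays scaled to one spread its slope did not pass (limma adjusted p = 0.0979), while those of Lama2, Dtna and Dmd did. At 2 pmol 2 of the 20 probes (10%) were called against 0 pmol, where 15.6% of all were. They were Sgce, a sarcoglycan (-0.80 at 2 pmol, against 0.56 at 0 pmol), and the dystrophin relative utrophin, Utrn (-0.96, against 0.08), and without centring both differences were positive, at 0.01 and 0.33. The median slope of the list was 0.01 and its median difference at 2 pmol 0.26, against 0.04 over all probes.

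Of actin and its filament proteins, 34 genes with 46 probes were measured. At 2 pmol 11 of the 46 (23.9%) were called, 8 positive and 3 negative, against 15.6% of all probes, with a median difference of 0.24. The highest were the integrin linker talin 2, Tln2 (3.76 at 2 pmol, against 0.43 at 0 pmol), the calponin Cnn3 (2.20, against -0.00150) and radixin, Rdx (2.43, against 0.49). The lowest were Enah spot 13208, an actin polymerisation factor (-1.19, against 0.28), supervillin, Svil (-0.57, against 0.72), and the tropomyosin Tpm1 (-0.80, against -0.02), and without centring none of these 3 was called, with differences of -0.10 for Enah, 0.08 for Svil and 0.59 for Tpm1. Svil is printed directly to the right of Cdc42bpg. Slopes passed for 5 positive and 4 negative probes (19.6%), led by Rdx and the spectrin Sptbn1 (0.25 each) and the smooth muscle actin Actg2 (0.16) upward, and by Enah spot 13208 (-0.29), Svil (-0.16) and Enah spot 1505 (-0.15) downward. Without centring, the median of all probes lay 1.41 above 0 pmol at 2 pmol, and of the slopes named from both lists that of Sptbn1 passed. With array set as a covariate none of them passed.

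Of markers for cell types, few were measured, and their ratios give no level. At 2 pmol 15.6% of all probes were called against 0 pmol. With so few marker probes, nothing is read from their counts. The plasma cell list had 1 probe, Pou2af1, which was called at 2 pmol (-1.19, against 0.50 at 0 pmol), but not without centring (difference -0.32, limma adjusted p = 0.662). Of 8 probes for muscle, stroma and epithelium 3 were called, Krt18 (4.42, against 0.18), Myh11 (-0.15, against -1.41) and Col1a2 (0.22, against -0.90). Of 3 probes for T and myeloid cells 2 were called, Cd3e (0.39, against -1.63) and Cd28 (-0.65, against 0.03), and the Cd28 difference was 0.69 and not called without centring. These genes were named after their values had been seen.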

How the data were processed

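The deposited values are log2 ratios, 1 for each spot of an array; the log base was read from the values, and background correction, normalisation, scanner settings and numerator are not given in the sources used here. An upper limit of 16.61 (log2 of 100000), reached by 1074 values, was set to missing. Each array was centred on the median of its non-control spots, and the 2 spots of a probe, 22 positions apart, were averaged. The 528 probes at 11 block positions that held controls were left out, leaving 7920. Platform symbols were updated through RefSeq identifiers (10766 of 16896 spots matched).

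All 7920 probes were fitted together with limma 3.58.1 in R 4.3.3, with two-sided tests and Benjamini-Hochberg adjustment over all probes. One fit gave a slope on log2 of the amount over 45 spiked arrays (at least 10 measured), without covariates. Another gave 1 mean per amount over 51 arrays (at least 2 measured per group), each amount minus 0 pmol. The fits were tested on simulated data. Other values were computed in Python 3.11.15 with numpy 2.4.6, pandas 2.3.3, scipy 1.17.1 (100000 permutations) and matplotlib 3.10.9. Arrays carry no counts, so their number limits the precision.

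Named were every probe of the 5 genes, the 3 most similar probes of each by Pearson r, up to 3 probes each way per gene list for the slope and for 2 pmol, and neighbours on the array at least 2 from 0 at 2 pmol. The neighbours Clspn and Ipo5, short of that limit, were named after their values had been seen. The members and the lists were chosen with earlier results of these data known. One further gene list is not reported here. Replicate numbers came from the titles. Deviations from the amount means correlated at a mean of 0.0102 between arrays of the same number and -0.00224 between others, so the numbers were not taken as pairs. Alternatives changed the centring, scaling, spots used, limit values, arrays, amount scale and covariates.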

Additional observations from a re-analysis of the deposited data

Results flagged for a closer look

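Among 66 groups (11 probes at 6 amounts with 6 arrays, 1 of them measured on 5), 14 had an array whose gap to the nearest other array, over the range of the group, exceeded Dixon's critical value at 95%. Chance gives about 1 in 20. In 6 of the 14 the array was replicate 4 at 0.75 pmol, the array whose paired spots agreed least. There Cald1 spot 757 had 1.51 (next 5.87), Sspn spot 12238 had 2.40 (next 5.88), Cdc42bpg had 2.19 (next 5.85) and Cald1 spot 11317 had -1.11 (next 0.24), each the lowest of 6. On the same array Iqgap2 spot 7941 had -1.98 (next -4.39) and Cald1 spot 12991 had 0.082 (next -1.52), each the highest of 6. All 5 probes with a mean over 3 from 0 at 2 pmol were thus nearer to 0 on that array than on the other arrays at 0.75 pmol.

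The other 8 came from other arrays. Replicate 4 at 0.25 pmol gave -2.59 for Cald1 spot 8892, replicate 5 at 0.25 pmol gave 3.88 for Sspn spot 12238, and replicate 4 at 0.5 pmol gave -1.82 for Cald1 spot 3095. Cald1 spot 8892 had -1.58 on replicate 5 at 0.1 pmol and -1.93 on replicate 6 at 0.75 pmol. At 0.05 pmol, Cald1 spot 3095 had -0.99 on replicate 6 and Cald1 spot 12991 had -1.65 on replicate 4. Iqgap2 spot 10827 had -0.67 on replicate 2 at 0 pmol. Each was the lowest of its 6 arrays.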

How the results depend on the processing

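The count of slopes past the threshold, 7 of 11, ran from 6 to 7 when single arrays of the amounts with 3 arrays were left out, and from 5 to 8 in the other alternatives except one: with array set as a covariate it was 0. Over all 7920 probes, 1833 slopes passed, against 16 with array set, 268 without centring and 850 with the amount in pmol, and 1158 of the 3590 probes measured on all arrays. The same covariate could not be fitted for the differences from 0 pmol, whose arrays form a set alone. The count of 56 called differences out of 110 ran from 49 to 62 in alternatives that tested 106 to 110 pairs, and from 54 to 59 with single arrays left out. It was 52 of 99 without the arrays at 1 pmol, 55 of 99 without these and replicate 4 at 0.75 pmol, and 46 of 70 for probes measured on all arrays. With the replicate block the counts were 7 slopes and 52 differences. No call of a slope changed without replicate 4 at 0.75 pmol, a setting added after seeing the data. Without centring, the 4 strong probes were called at 10 of 10 amounts, Cald1 spot 12991 at 2 in place of 6. Slopes that changed sign were small. That of Cald1 spot 8892 was 0.049 without centring, 0.052 with the lower spot only, 0.056 without the arrays at 1 pmol, 0.050 without replicate 4 at 0.75 pmol and the 1 pmol arrays, 0.000241 with arrays scaled to one spread and 0.000924 with array set, and with single arrays left out it ran from -0.052 (without replicate 3 at 2 pmol) to 0.055 (without replicate 2 at 1 pmol). Cald1 spot 3095 had -0.038 with array set, and with single arrays left out it ran from -0.019 (without replicate 3 at 1 pmol) to 0.078 (without replicate 2 at 1 pmol). With array set, Cald1 spot 11317 had -0.035 and Iqgap2 spot 7941 0.037, and without centring Iqgap2 spot 10827 had 0.068. The cause was not tested. The call for Iqgap2 spot 7941 was lost in 11 further settings, and that for Cald1 spot 11317 without centring and with the limit values kept. The 3 arrays at 1 pmol, with the most missing spots, limit what can be said there.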
